A study of Mus musculus with 30 samples.

Results

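The genes described here are the tripartite motif (TRIM) family, taken as every row of the count table whose symbol is Trim followed by a digit. The rule found 68 members among 25611 gene rows. Of these, 50 passed the filter on low counts and were tested, and 18 did not. RNA was sequenced from mouse dendritic cells, differentiated out of bone marrow over 6 to 7 days in 200 ng/ml FLT3L. The cells came from Rubcn KO or wild-type (WT) mice, where Rubcn encodes Rubicon, a protein of LC3-associated phagocytosis. In each genotype there were 3 libraries of untreated cells, 3 of cells given ovalbumin (OVA) for 30 min, 3 of cells given OVA for 4 h, 3 of cells given apoptotic Jurkat cells for 30 min and 3 of cells given apoptotic Jurkat cells for 4 h. Jurkat is a human T-cell leukaemia line, so the last 2 treatments put human RNA into a mouse culture. The 10 groups made 30 libraries. The labels name neither the Rubcn allele nor the mouse strain or age, and they do not say whether the 3 libraries of a group came from separate mice. P-values therefore measure the spread between libraries, which may be technical.

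TRIM proteins carry a RING finger, 1 or more B-boxes and a coiled coil, and most work as ubiquitin ligases. In dendritic cells and other sentinel cells, many of them act in the sensing of viral RNA and DNA: some attach ubiquitin to a sensor or its adaptor and strengthen the signal, others mark signalling proteins for breakdown and damp it, and some bind the incoming virus. A part of the family is itself induced by interferon through the interferon-stimulated response element (ISRE), to which interferon regulatory factors bind. Other members have nuclear, cytoskeletal or neuronal roles.

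Library totals spanned 9.73 M to 51.6 M counts (median 44.9 M), and TRIM members took 0.242% to 0.443% of them. The lowest total was that of KO library 3 at 30 min with OVA alone, and the next lowest was 38.7 M. Levels are given as CPM, the counts per M counts of a library whose size was scaled by the trimmed mean of M-values (TMM), and are printed with the SD over 3 libraries. A call is an adjusted p under 0.05 over all 14808 genes tested. A library at 0 counts allows a level of up to 3 counts, which was 0.0551 to 0.29 CPM. Rubcn stood at 72.8 ± 2.74 CPM (SD, n = 3) in untreated KO cells and at 98.9 ± 4.96 CPM in untreated WT cells. In each of the 5 conditions all KO libraries lay below all WT libraries for Rubcn, but most of its counts remained, and the sources used here do not say which part of the gene was deleted. None of the 6 dendritic cell markers was at 0 in any group, and in untreated cells they summed to 15800 to 18280 CPM in WT and to 16400 to 18120 CPM in KO libraries. KO library 2 at 4 h with Jurkat cells stood apart: the chi-square per degree of freedom of its counts was 121.4 and 126 against the other libraries of its group, and 2.222 to 15.73 between the other pairs within groups. The ribosomal RNA precursor Rn45s, Lars2 and Mir6236 held 92.6% and 94.1% of that chi-square, and without these 3 genes it was 6.281 and 4.634. In bulk RNA, fewer cells of one type and less RNA per cell cannot be told apart.

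The 18 members that were not tested reached at most 0.481 CPM in any library (Trim71), and none of them was at 0 in all 30. They were Trim10, Trim30e-ps1, Trim31, Trim38, Trim40, Trim42, Trim43a, Trim50, Trim52, Trim54, Trim60, Trim61, Trim63, Trim67, Trim71, Trim72, Trim75 and Trim80. Among the 50 tested members the level in untreated WT cells spanned from 0 counts for Trim9 to 364 ± 25.5 CPM for Trim28. Levels of different genes were compared per kilobase of exon, on the union of GENCODE M21 exons, since the annotation used for counting is not given in the sources used here. On that scale Trim28, the corepressor KAP1 recruited by KRAB zinc finger proteins, stood at 87.5 ± 6.13 CPM per kb in untreated WT cells. Trim30a, an inhibitor of NF-kB signalling that targets the adaptors TAB2 and TAB3, stood at 86.5 ± 9.13, and the 2 levels did not differ beyond their spread. Trim25, the ubiquitin ligase of the RNA sensor RIG-I, came next at 40.2 ± 1.43 CPM per kb. Trim35 (29.9 ± 0.324), Trim30d (28.4 ± 3.63) and Trim12c (27.9 ± 1.18) followed, of which Trim30d overlapped both others within its SD. After 4 h with Jurkat cells the WT order per kb was Trim30a (380.4 ± 40.8), Trim30d (161.6 ± 15.9), Trim25 (114.1 ± 5.26), Trim12c (88.3 ± 6.06) and Trim28 (58.4 ± 2.85).

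Of the members, 10 lie side by side on chromosome 7, between positions 104218795 and 104535361 of mm10: Trim6, Trim34a, Trim5, Trim12a, Trim34b, Trim12c, Trim30b, Trim30a, Trim30d and the pseudogene Trim30e-ps1. These are the mouse relatives of human TRIM5, TRIM6, TRIM22 and TRIM34, a group that includes the capsid-binding restriction factor TRIM5. Of the 10, 9 were tested. Trim5 with Trim12a and Trim12c, Trim30a with Trim30b and Trim30d, and Trim34a with Trim34b are close copies, so how the counting split reads between them is uncertain.

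Because the results turn on this cluster and on Trim21 and Trim25, the start of 8 of these genes is printed, from 120 bases before to 30 bases after the annotated start, on the gene's own strand, from RefSeq (GRCm38.p6). Windows of 300 bases (250 before to 50 after the start) were searched for the ISRE core GAAANNGAA on both strands, and capitals mark each match. Read on the other strand, a match appears as TTC, 2 bases and TTTC.
Trim30a: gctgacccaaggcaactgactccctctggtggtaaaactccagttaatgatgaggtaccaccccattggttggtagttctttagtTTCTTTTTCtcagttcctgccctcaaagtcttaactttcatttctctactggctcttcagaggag
Trim30d: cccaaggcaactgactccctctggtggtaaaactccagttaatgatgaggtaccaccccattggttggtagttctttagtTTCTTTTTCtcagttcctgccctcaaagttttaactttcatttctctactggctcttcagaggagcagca
Trim30b: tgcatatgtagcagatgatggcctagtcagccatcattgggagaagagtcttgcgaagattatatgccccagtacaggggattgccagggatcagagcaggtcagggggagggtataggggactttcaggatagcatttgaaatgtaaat
Trim34a: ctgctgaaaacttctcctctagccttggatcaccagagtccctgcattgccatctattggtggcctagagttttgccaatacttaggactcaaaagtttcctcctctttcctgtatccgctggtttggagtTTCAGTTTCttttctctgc
Trim5: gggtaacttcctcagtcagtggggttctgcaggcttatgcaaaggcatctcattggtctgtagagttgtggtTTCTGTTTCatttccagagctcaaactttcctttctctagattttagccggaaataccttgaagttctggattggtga
Trim12c: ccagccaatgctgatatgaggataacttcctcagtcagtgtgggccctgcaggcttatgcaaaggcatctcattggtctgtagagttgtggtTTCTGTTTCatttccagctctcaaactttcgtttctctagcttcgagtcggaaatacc
Trim21: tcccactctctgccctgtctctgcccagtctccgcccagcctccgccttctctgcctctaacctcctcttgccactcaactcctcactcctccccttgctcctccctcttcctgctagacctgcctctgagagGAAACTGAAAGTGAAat
Trim25: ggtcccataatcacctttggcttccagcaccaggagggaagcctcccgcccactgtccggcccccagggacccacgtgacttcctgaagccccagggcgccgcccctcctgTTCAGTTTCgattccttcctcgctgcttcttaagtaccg
In order, these stretches are chr7:104465164-104465313, chr7:104507820-104507969, chr7:104358617-104358766, chr7:104244337-104244486, chr7:104288077-104288226, chr7:104353320-104353469, chr7:102565453-102565602 and chr11:88999283-88999432, with Trim34a and Trim25 on the plus strand and the others on the minus strand.

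The match began 35 bases before the start in Trim30a and 40 before it in Trim30d, whose 300-base windows shared a run of 118 identical bases that holds it. Trim5 and Trim12a shared a run of 241 bases, and Trim12c shared 71 bases with each of these. Trim21, the cytosolic antibody receptor, had 2 overlapping matches that began at bases 14 and 20 after the start. The Trim30b window had no match, although Trim30b is a close copy of Trim30a in sequence. It held the NF-kB-like motif GGGANTTTC, which no other member window did. The Trim30b row of the count table runs from position 104355398 to 104358646, which is shorter than its 7.527 kb of GENCODE exons. Its annotated start, and so the place of its window, is therefore uncertain. RefSeq gave 66 windows for 52 members, and 13 of these windows (19.7%) held the ISRE core, against 2812 of 32851 windows of all genes (8.56%). The 12 members with a match were Trim2, Trim5, Trim7, Trim12a, Trim12c, Trim21, Trim25, Trim26, Trim30a, Trim30d, Trim34a and Trim34b. The gamma-activated site motif TTCNNNGAA, which reads the same on both strands, was in 9.09% of member windows and 8.3% of all windows. Some close copies share long runs of promoter sequence, so the member windows are not all independent. Others do not: the longest run was 8 bases between Trim30b and the upstream Trim30a window and 11 bases between Trim34a and Trim34b. A match of these letters is not a bound site.

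The first question was whether TRIM members differed between KO and WT cells. In untreated cells the chromosome 7 cluster was lower in KO: 7 of its 9 tested members were called lower, with a median log2 fold change of -0.69 over the 9. Over all 50 tested members 11 were called lower (22%) against a background of 3.97% of all genes, and 3 were called higher (6%) against 6.00%. The median over the members was -0.12 and that over all genes -0.01.

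Trim30a was at 399, 335 and 333 CPM in the 3 untreated WT libraries and at 233, 213 and 214 CPM in the KO libraries. The groups did not overlap, and KO stood at 61.9% of WT (220.1 against 355.7 CPM, log2 fold change -0.69, SE 0.0948, adjusted p = 9.81e-06 by edgeR's quasi-likelihood test). Trim30d, its neighbour and copy, was at 122.3, 97.7 and 99.8 CPM in WT and at 64.6, 59.2 and 57.3 CPM in KO libraries. Its log2 fold change of -0.82 (SE 0.115, adjusted p = 1.29e-05) was larger in size than that of any other called member in untreated cells. The third copy, Trim30b, was at 15.0, 13.7 and 14.9 CPM in WT and at 9.43, 8.75 and 8.80 CPM in KO (-0.69, SE 0.0867, adjusted p = 2.53e-06). For all 3 copies every KO library lay below every WT library. A lack of overlap was a condition for printing the library values of Trim30b and Trim30d, so it adds no support for them. The share of all genes without overlap was not computed.

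Trim34a was at 35.0, 27.6 and 28.7 CPM in WT and at 17.9, 19.0 and 17.1 CPM in KO libraries (-0.76, SE 0.0959, adjusted p = 2.88e-06). Trim5 was at 17.0, 15.8 and 15.0 CPM in WT and at 11.7, 12.0 and 11.9 CPM in KO (-0.42, SE 0.0645, adjusted p = 4.88e-05). Trim12a (53.5 against 69.1 CPM, -0.37) and Trim12c (81.4 against 104.4 CPM, -0.36) were lower by a smaller step, again with no overlap of libraries. The remaining tested members of the cluster, Trim6 (-0.72, adjusted p = 0.294) and Trim34b (-0.66, adjusted p = 0.303), lay under 1 CPM and were not called. The calls of these 7 members in untreated cells held in all 13 alternative analyses each.

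**Figure D1:**
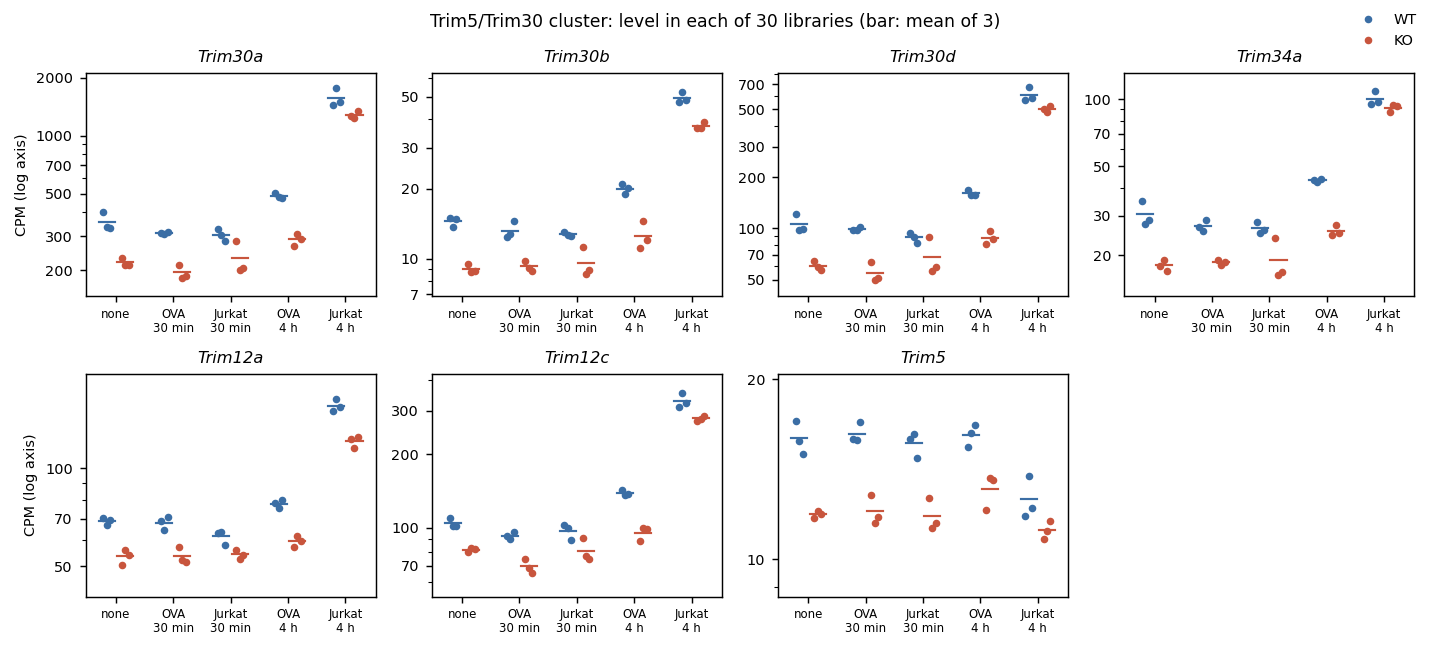
Level in CPM (log axis) of the 7 called members of the chromosome 7 cluster in each of the 30 libraries, by treatment, with WT in blue, KO in red and bars at the mean of 3 libraries. The KO libraries of untreated, 30 min OVA and 4 h OVA cells sit below the WT libraries in every panel, 1 KO library of 30 min Jurkat cells sits above the other 2 in the Trim30 and Trim34a panels, and 6 of the 7 members are at their highest at 4 h with Jurkat cells while Trim5 is not.

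The difference in the cluster was found again in treated cells. At 30 min with OVA 13 members were called lower in KO (26%, background 6.13%) and 4 higher (8%, background 6.25%), and 7 of the 13 were cluster members. After 4 h 12 were called lower (24%, background 6.35%) and 1 higher (2%, background 6.22%), again with 7 of the cluster. At 30 min with Jurkat cells the 7 members called lower (14%, background 3.67%) were all of the cluster, and 1 member was called higher (2%, background 5.58%). Jurkat cells for 4 h gave 9 called lower (18%, background 13.5%) and 3 higher (6%, background 9.37%), and 4 of the 9 belonged to the cluster. No member changed direction between calls: 17 members were called lower at least once, 5 higher at least once, none both ways, and 28 never.

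Members called lower in KO in all 5 conditions were Trim12a, Trim12c, Trim30a and Trim30b. Trim30a fell in KO by 0.68 on the log2 scale at 30 min with OVA (SE 0.0958, adjusted p = 1.92e-05) and by 0.74 at 4 h with OVA (SE 0.0946, adjusted p = 2.05e-06). Its WT libraries at 4 h with OVA stood at 504, 478 and 475 CPM and its KO libraries at 268, 310 and 291 CPM. Both OVA comparisons were free of overlap between the genotypes.

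With Jurkat cells the Trim30a difference was smaller, and it rested more on single libraries. At 30 min the WT libraries were at 328, 306 and 284 CPM and the KO libraries at 285, 201 and 206 CPM. KO library 1 stood apart and overlapped the WT range, and the call (-0.41, SE 0.0946, adjusted p = 0.00564) was lost without KO library 2 or 3 or when only the compared groups were fitted, with values from -0.587 to -0.319 over the alternatives. The same library was the highest of the 3 KO libraries at 30 min for Trim30b, Trim30d, Trim34a, Trim5, Trim12a and Trim12c. After 4 h WT was at 1441, 1755 and 1495 CPM and KO at 1269, 1237 and 1345 CPM. The groups did not overlap there (-0.28, SE 0.0936, adjusted p = 0.0272), but the call was lost with total-count scaling and without KO library 1, KO library 2 or WT library 2 (-0.340 to -0.194).

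Trim30d and Trim34a, also of the cluster, were called lower in 4 conditions but not at 4 h with Jurkat cells. Trim30d at 4 h with OVA was at 166.9, 157.2 and 157.0 CPM in WT and at 81.0, 97.0 and 86.3 CPM in KO libraries (-0.86, SE 0.113, adjusted p = 3.03e-06). With Jurkat cells for 4 h it was at 564, 676 and 582 CPM in WT and at 500.2, 484 and 520 CPM in KO libraries (-0.28, adjusted p = 0.0662). The KO libraries were still lower without overlap, yet the difference missed the threshold. Its size was near that of Trim30a there (-0.285), which passed it, so the 2 copies differ in the call and hardly in the value. Trim34a went from -0.76 at 4 h with OVA (adjusted p = 1.05e-06) to -0.13 at 4 h with Jurkat cells (adjusted p = 0.28), where the range of 87.4 to 93.8 CPM in KO lay just under the 94.9 to 109 CPM of WT. Trim5 was likewise called in 4 conditions (-0.42, -0.42, -0.40 and -0.31) and not at 4 h with Jurkat cells (-0.17, adjusted p = 0.0791). At 30 min with Jurkat cells the Trim30d call (-0.38, adjusted p = 0.0351) was lost with DESeq2, with the compared groups alone and without KO library 2 or 3 or WT library 1 or 2. The Trim12a call there (-0.18) was lost without those same 4 libraries, and the Trim12c call (-0.27) without KO library 3. The Trim12c call at 4 h (-0.24) was lost without WT library 2.

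Members outside the cluster that act in innate sensing were called in both directions. Of 12 tested, 3 were called lower in untreated cells (25%, background 3.97%), 4 at 30 min with OVA (33.3%, background 6.13%), none at 30 min with Jurkat cells (background 3.67%), 4 at 4 h with OVA (33.3%, background 6.35%) and 4 at 4 h with Jurkat cells (33.3%, background 13.5%). In the same order 1, 2, 1, 0 and 1 were called higher, against backgrounds of 6.00%, 6.25%, 5.58%, 6.22% and 9.37%. The median of the 12 lay between -0.09 in untreated cells and 0.03 at 30 min with Jurkat cells, where 7 of them had a positive value. Trim21 was at 47.7, 47.4 and 48.3 CPM in untreated WT and at 40.7, 38.0 and 37.8 CPM in untreated KO libraries (-0.30, SE 0.0615, adjusted p = 0.00139). Its difference was -0.33 at 4 h with OVA and -0.25 at 4 h with Jurkat cells, both called, and -0.06 at 30 min with Jurkat cells, not called. Trim14, an adaptor of the MAVS complex at mitochondria, was at 84.9, 81.4 and 89.5 CPM in untreated WT and at 70.0, 73.1 and 74.8 CPM in untreated KO libraries (-0.23, SE 0.0605, adjusted p = 0.0122). That call was lost without KO library 1 or WT library 3, whereas those of Trim14 at 30 min with OVA (-0.29), 4 h with OVA (-0.25) and 4 h with Jurkat cells (-0.26) held in every alternative.

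Trim25 was at 224.2, 228.8 and 240.3 CPM in untreated WT and at 208.5, 210.4 and 210.7 CPM in untreated KO libraries. The step was small (-0.14, SE 0.0388, adjusted p = 0.0194) and the call was lost with the compared groups alone and without KO library 1 or 2 or WT library 3. With OVA for 4 h it was -0.23 (SE 0.0388, adjusted p = 0.000102) and held in every alternative. Trim26 was called at 4 h with Jurkat cells (198.7 against 225.8 CPM, -0.18, adjusted p = 0.00476; lost with total-count scaling). Trim56, a ligase that acts on the DNA-sensing adaptor STING, was called at 4 h with OVA (35.5 against 40.7 CPM, -0.20, adjusted p = 0.0232; lost without KO library 1 or 3 or WT library 3).

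**Figure D2:**
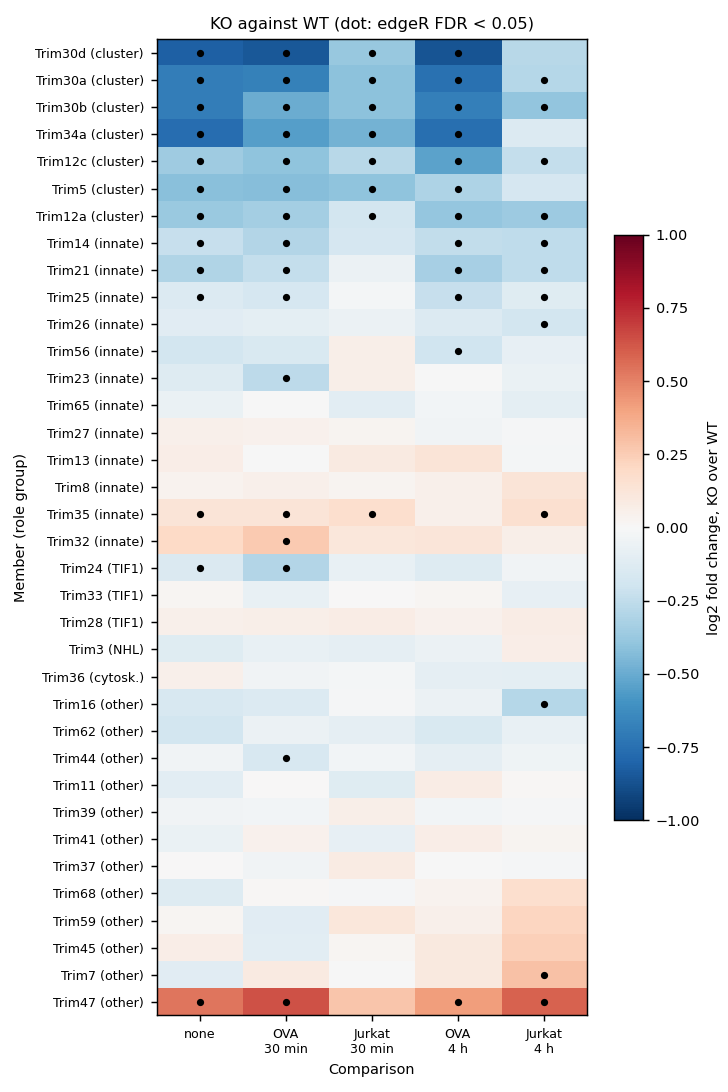
Log2 fold change of KO over WT (colour) for the 36 tested members that reach 5 CPM in at least 1 library, by role group, in the 5 conditions, with a dot where the edgeR adjusted p was under 0.05. The cluster rows at the top are blue in all 5 columns, with Trim30a, Trim30d and Trim34a paler at 4 h with Jurkat cells than in untreated cells, Trim14, Trim21 and Trim25 are lower by smaller values in untreated cells, and Trim47 at the bottom is red in all 5.

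Few members were higher in KO. Trim47, a ubiquitin ligase, was at 3.96, 4.53 and 4.35 CPM in untreated WT and at 6.95, 6.01 and 5.71 CPM in untreated KO libraries (0.54, SE 0.115, adjusted p = 0.00217). It was called higher in 4 conditions: also at 30 min with OVA (0.64), 4 h with OVA (0.42; lost without WT library 1) and 4 h with Jurkat cells (0.59), and at 30 min with Jurkat cells its value was 0.28 (adjusted p = 0.139). Trim35 was higher by a small and even step: 136.6, 138.4 and 139.5 CPM in untreated WT against 153.1, 149.6 and 150.2 CPM in untreated KO (0.13, SE 0.0297, adjusted p = 0.00472; lost with the compared groups alone). It was called in 4 conditions, all except 4 h with OVA (0.05), and its row overlaps that of 1700001G11Rik, so reads of the pair could be mixed. Trim2, an NHL-domain ligase best known from neurons, lay at 1.15 ± 0.281 CPM in untreated WT cells and at 1.90 CPM in KO (0.71, adjusted p = 0.0177; lost without KO library 1 or WT library 2). Trim24, a cofactor of nuclear receptors, was lower in KO at 30 min with OVA (66.6 against 80.9 CPM, -0.29, SE 0.0463, adjusted p = 8.41e-05). In untreated cells its difference was -0.15 (adjusted p = 0.0379; lost with total counts, with the compared groups alone and without KO library 1 or 2 or WT library 1). Its relatives of the TIF1 class, Trim28 and Trim33, lay between -0.08 and 0.08 in all 5 conditions with no call. The remaining members called in 1 condition were Trim16 (10.1 against 12.3 CPM, -0.28, adjusted p = 0.00448) and Trim7 (7.88 against 6.44 CPM, 0.29, adjusted p = 0.0382) at 4 h with Jurkat cells, Trim44 (-0.16), Trim23 (-0.26) and Trim32 (0.26) at 30 min with OVA, and Trim69 under 1 CPM at 4 h with OVA. The calls of Trim16 and Trim44 held in every alternative. That of Trim7 was lost with the compared groups alone and without KO library 1 or 3 or WT library 1 or 2, and those of Trim23, Trim32 and Trim69 were lost in 6 or more of their alternatives.

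Members were then split by the ISRE core in their RefSeq window, as a description. In untreated cells 8 of the 12 tested members with the core were called lower in KO (median -0.36), 2 of the 24 with a window and no core (median -0.01) and 1 of the 14 with no window in the table. The share of all genes called lower was 3.97%. The 8 were Trim21, Trim25 and the cluster members Trim5, Trim12a, Trim12c, Trim30a, Trim30d and Trim34a. The split therefore largely restates the cluster result. After Jurkat cells for 4 h, 6 of 12, 1 of 24 and 2 of 14 were called lower, against 13.5% of all genes. Trim30b was called lower in all 5 conditions with no core in its window, whose place is uncertain. Of the others with the core, Trim7, Trim26 and Trim34b were not called in untreated cells, and Trim2 was called higher in KO (0.71). Called higher in KO were 1 of 12, 1 of 24 and 1 of 14 members, both untreated and at 4 h with Jurkat cells. The shares of all genes called higher were 6.00% and 9.37%.

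The pathway around the TRIM proteins was read from 3 lists. Of 26 tested partners in sensing and in ubiquitin and ISG15 transfer, 10 were called lower in KO in untreated cells, 12 at 30 min with OVA, 5 at 30 min with Jurkat cells, 12 at 4 h with OVA and 11 at 4 h with Jurkat cells, and none was called higher in any. The shares of all genes called lower were 3.97%, 6.13%, 3.67%, 6.35% and 13.5% in that order. In untreated cells Isg15, the ubiquitin-like modifier, was at -1.43, Usp18, which removes it, at -1.14, Irf7 at -1.08 and the RIG-I gene Ddx58, the substrate of Trim25, at -0.68. Mavs (-0.01) and the Trim30a target Tab2 (0.02) were not called there. Among interferon receptor and signal genes, Irf9 (-0.35) and Stat2 (-0.23) were called lower in untreated KO cells, and Jak1 (0.04) was not called. Of 5 tested TRIM proteins under other symbols, Pml (-0.63) and Mefv (-0.66) were lower and Mid1 (1.72) higher in untreated KO cells.

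Markers of other cells also differed between the genotypes. In untreated cells the 8 stromal markers summed to 549.3 to 629.2 CPM (WT) and 706.5 to 886.4 CPM (KO), with 6 of 8 called higher and none at 0. All 6 basophil or mast cell markers were called higher in untreated KO cells (21.5 to 27.8 against 54.8 to 85.3 CPM in sum). Of 9 plasmacytoid dendritic cell markers 4 were called lower and 1 higher in untreated KO cells (2721 to 2727 against 2371 to 2521 CPM in sum), whereas 1 of the 6 dendritic cell markers was called lower. Of 20 tested T-lineage markers 5 were called higher and none lower. Of 5 markers each, type 1 conventional dendritic cells had 1 higher and 1 lower, and type 2 had 1 higher. None of 8 macrophage markers was called. The shares of all genes called were 6.00% higher and 3.97% lower. The part of these cell types in the TRIM differences was not tested.

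The next question was how TRIM members responded to apoptotic Jurkat cells. At 4 h the family split: 21 of the 50 tested members rose in WT (42%, background 38.9%) and 21 fell (42%, background 40.6%), and in KO 23 rose (46%, background 37.5%) and 21 fell (42%, background 41.0%). These shares were near those of all genes. In both genotypes 41 members were called in the same direction, 21 up and 20 down, and Trim29, Trim33, Trim34b, Trim46 and Trim58 were called in neither. The members that rose 2-fold or more and reached at least 5 CPM in 1 of the compared groups were the same 12 in WT and KO: Trim12a, Trim12c, Trim13, Trim14, Trim21, Trim25, Trim26, Trim30a, Trim30b, Trim30d, Trim34a and Trim56. T-lineage markers moved too: of 20 tested, 17 rose and 3 fell in WT. All 21 such genes summed to 88.6 to 94.7 CPM in untreated WT and to 171 to 208.5 CPM at 4 h with Jurkat cells, with none at 0 in either group. Cd28, the largest part of the untreated sum, went the other way, from 52.9 to 23.0 CPM. Of 5 markers of type 2 conventional dendritic cells, 4 fell and 1 rose in WT, and their sum went from 1434 to 1484 CPM untreated to 817.7 to 869.4 CPM. Macrophage markers (7 of 8 rose, 1126 to 1235 against 1590 to 1815 CPM) and stromal markers (7 of 8 rose, 549.3 to 629.2 against 788.3 to 919.2 CPM) were higher. Of 9 plasmacytoid dendritic cell markers 5 rose and 4 fell, with sums of 2721 to 2727 and 3701 to 4315 CPM. None of these markers was at 0 in either group. The part of Jurkat RNA and of these cell types in the TRIM counts was not tested.

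Trim30d rose furthest of the members above 5 CPM. From 122.3, 97.7 and 99.8 CPM in untreated WT libraries it reached 564, 676 and 582 CPM, a 5.70-fold rise (log2 fold change 2.51, SE 0.116, adjusted p = 5.44e-18). In KO it went from 60.4 to 501.1 CPM, 8.30-fold (3.05, SE 0.12, adjusted p = 1.1e-19). Trim30a rose 4.40-fold in WT, from 355.7 to 1564 CPM (2.14, SE 0.0976, adjusted p = 3.88e-18), and 5.83-fold in KO, from 220.1 to 1284 CPM (2.54, SE 0.0993, adjusted p = 9.65e-20). With that it took the first place of the family on both the CPM and the per-kb scale in WT.

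Trim30b rose from 14.5 to 49.3 CPM in WT (1.76, SE 0.0784) and from 8.99 to 37.4 CPM in KO (2.06, SE 0.0828). Trim34a rose from 30.4 to 100.3 CPM in WT (1.72, SE 0.0897) and from 18.0 to 91.4 CPM in KO (2.35, SE 0.0938). Trim12c went from 104.4 to 330.2 CPM in WT (1.66) and from 81.4 to 279.6 CPM in KO (1.78), and Trim12a by 1.18 in both. Each Trim30 copy rose more than Trim12a in the value printed, a difference that was not tested. Trim5, which shares its promoter sequence with Trim12a, did not rise: it fell from 15.9 to 12.6 CPM in WT (-0.34, SE 0.0664, adjusted p = 3.69e-05), and its KO value was -0.09 (adjusted p = 0.239).

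Among the 12 tested innate members outside the cluster, 7 rose in each genotype (58.3%, background 38.9% in WT and 37.5% in KO). The other 5 fell (41.7%, background 40.6% and 41.0%), a share near that of all genes. All 12 were called, in comparisons that called 11778 (WT) and 11619 (KO) of all 14808 genes. Trim21 rose from 47.7, 47.4 and 48.3 CPM to 140.6, 165.5 and 147.5 CPM in WT (1.66, SE 0.0602, adjusted p = 1.42e-20), and by 1.71 in KO. Trim25 rose from 231.1 ± 8.26 to 656.6 ± 30.3 CPM in WT (1.51) and by 1.53 in KO. Trim26 (1.53 and 1.46 in WT and KO), Trim56 (1.43 and 1.53), Trim14 (1.32 and 1.29), the endoplasmic reticulum ligase Trim13 (1.09 and 1.01) and Trim35 (0.79 and 0.82) rose as well. Trim65, a ubiquitin ligase of the RNA sensor MDA5, went the other way. It stood at 23.3, 23.7 and 25.2 CPM in untreated WT and at 6.19, 7.71 and 6.16 CPM at 4 h, and fell by 1.85 (SE 0.0749, adjusted p = 2.01e-19) in WT and by 1.88 in KO. Trim8 fell by 0.77 and 0.68, Trim23 by 0.55 and 0.49, Trim27 by 0.39 and 0.46 and Trim32 by 0.23 and 0.37; the WT call of Trim32 was lost with RLE size factors, a stricter filter and DESeq2, and without WT Jurkat library 2 or untreated WT library 1 or 3.

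**Figure D3:**
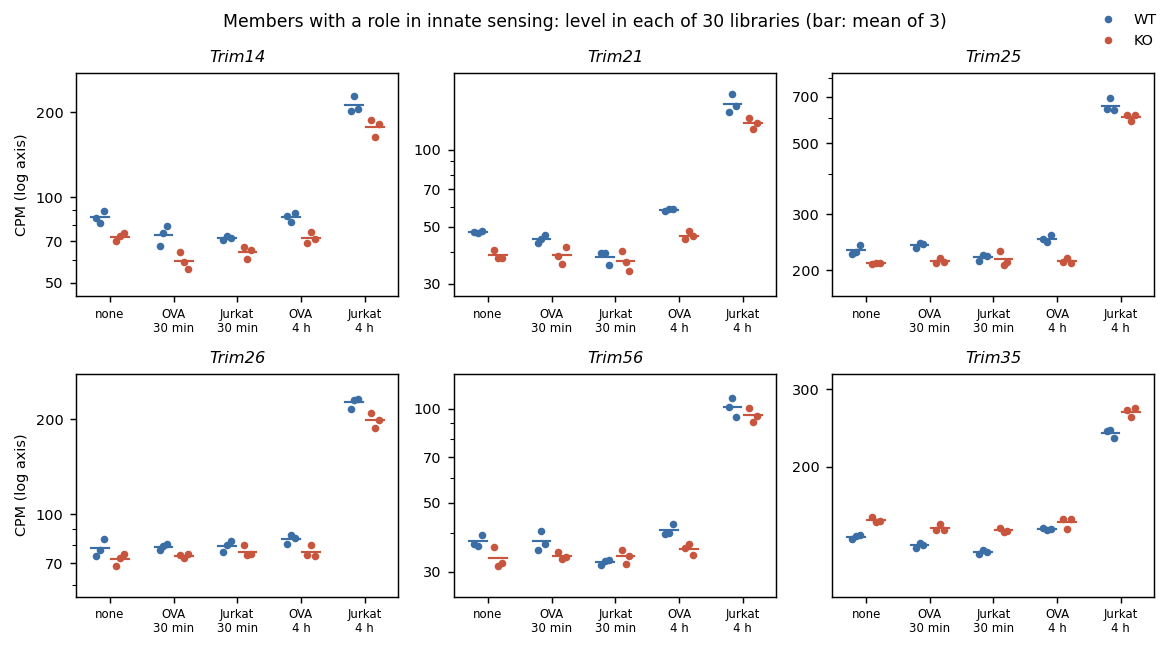
Level in CPM (log axis) of 6 members with a role in innate sensing in each of the 30 libraries, by treatment, with WT in blue, KO in red and bars at the mean of 3 libraries. All 6 are highest at 4 h with Jurkat cells in both genotypes, and in the Trim35 panel the KO mean lies above the WT mean in all 5 conditions.

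Trim7, a ligase that binds glycogenin, fell furthest in WT among the tested members. Its untreated WT libraries were at 24.5, 26.5 and 28.3 CPM and its libraries at 4 h with Jurkat cells at 6.59, 5.98 and 6.76 CPM (-2.04, SE 0.0884, adjusted p = 1.1e-18), and in KO it fell by 1.63. Trim45 fell by 1.61 in WT and by 1.44 in KO, from 5.73 to 1.88 CPM in WT. Trim37, a ligase of peroxisomes and centrosomes, fell by 1.25 and 1.27, from 59.4 to 24.9 CPM in WT. Trim68 (-1.03 in WT and -0.73 in KO), Trim11 (-0.93 and -0.81), Trim59 (-0.91 and -0.71), Trim41 (-0.67 and -0.58) and Trim16 (-0.66 and -0.78) also fell. In the TIF1 class Trim28 fell from 363.8 ± 25.5 to 242.6 ± 11.9 CPM in WT (-0.58, SE 0.0454, adjusted p = 1.16e-12), Trim24 fell by 0.31 and Trim33 was at 0.10 (adjusted p = 0.09).

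**Figure D4:**
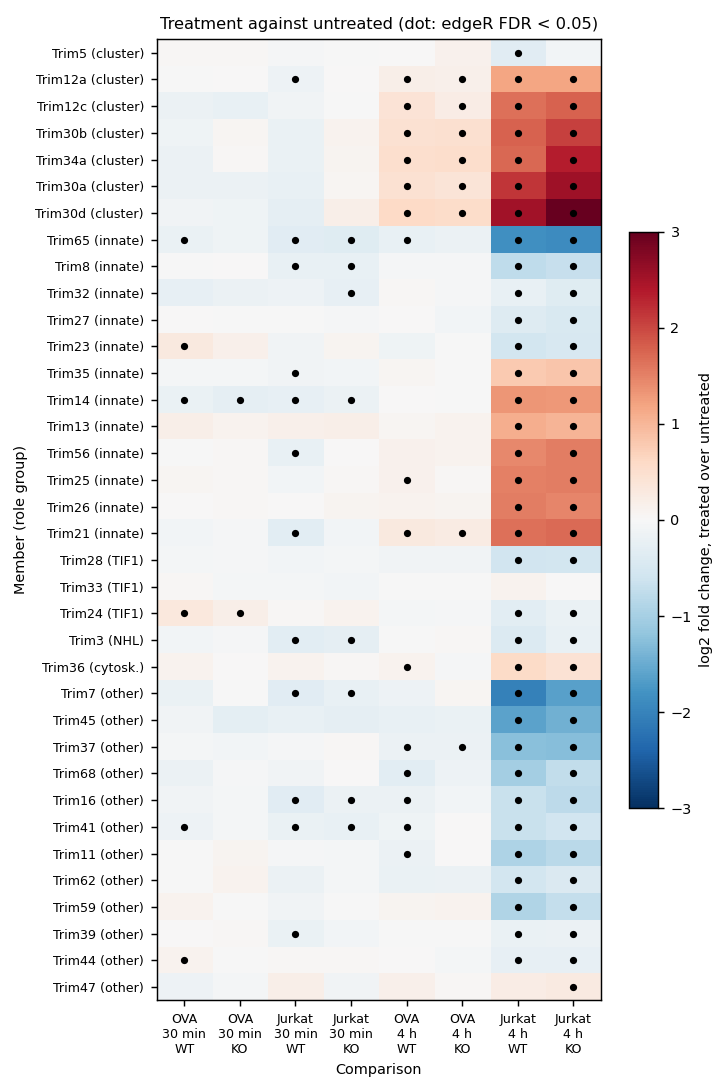
Log2 fold change of treated over untreated cells (colour) for the 36 tested members that reach 5 CPM in at least 1 library, in 8 comparisons (4 treatments in WT and KO), with a dot where the edgeR adjusted p was under 0.05. The columns of 4 h with Jurkat cells carry the darkest colours, red for the cluster except Trim5 and blue for Trim65, Trim7, Trim45 and Trim37, and the 4 h OVA columns are pale red for the same cluster rows.

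Some members at low level rose as well. Trim9, a brain ligase of the cytoskeletal class, had 0 counts in the 3 untreated WT libraries and 49 counts at 4 h with Jurkat cells (0.467 ± 0.0761 CPM). Against the limit of 3 counts over the untreated group it was at least 21.9-fold higher. Trim55, a titin-binding ligase of muscle, rose by 4.46 in WT (0.0292 to 0.69 CPM) and by 2.30 in KO, and Trim66 of the TIF1 class by 2.10 and 1.52 (0.471 to 2.02 CPM in WT). Trim43c (2.09 and 1.99), Trim43b (2.28 and 2.77), Trim15 (the WT call lost without WT Jurkat library 1) and Trim69 rose too from under 1 CPM. Trim9, Trim55 and Trim43b passed the filter on low counts only through the libraries of 4 h with Jurkat cells. A rise there was thus favoured in advance for these members, and the calls are no separate support for it. Trim36 of the cytoskeletal class, which was at 48.1 CPM in untreated WT, rose by 0.57 in WT and 0.43 in KO.

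In the Jurkat comparisons at 4 h, TMM and total-count scaling differ. With total counts the median over all genes moved to -0.42 (WT) and -0.37 (KO), and the member calls became 21 higher and 24 lower in WT and 22 higher and 24 lower in KO. Among called members only Trim47 in KO changed sign. For KO against WT at 4 h with Jurkat cells, total counts gave 9 members higher and 6 lower in place of 3 and 9.

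**Figure D5:**
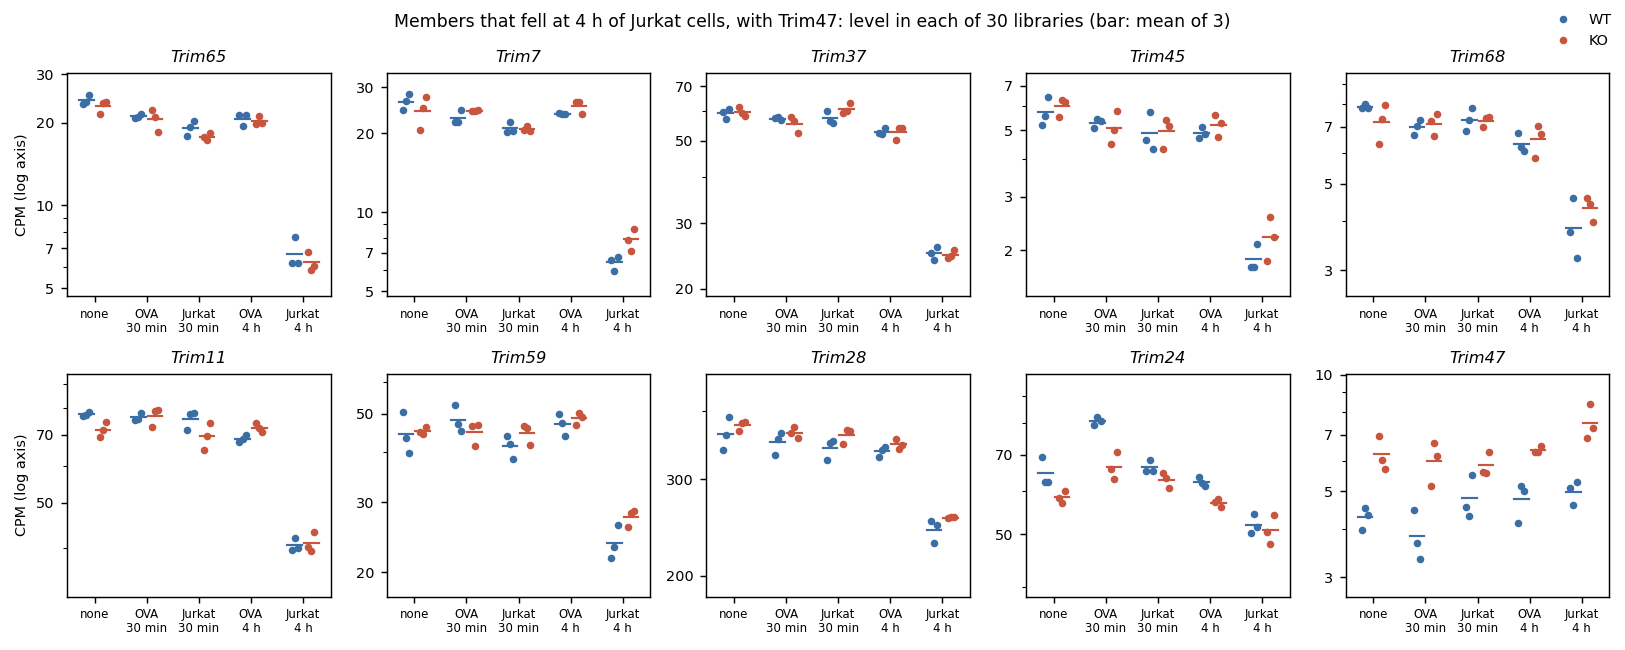
Level in CPM (log axis) of 9 members that fell at 4 h with Jurkat cells, and of Trim47, in each of the 30 libraries, with WT in blue, KO in red and bars at the mean of 3 libraries. Trim65, Trim7, Trim37, Trim45 and Trim68 are lowest at 4 h with Jurkat cells in both genotypes, Trim24 is high at 30 min with OVA in WT, and Trim47 is higher in KO than in WT.

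Whether the response differed by genotype was tested as an interaction. For Jurkat cells at 4 h, 2 of 50 members were called (4%), a share near the 4.26% of all genes called in either direction. Trim34a rose more in KO than in WT by 0.63 on the log2 scale (SE 0.128, adjusted p = 0.00484), and Trim30d by 0.54 (SE 0.158, adjusted p = 0.0465). All 9 tested cluster members had a positive value, among them Trim30a at 0.41 (adjusted p = 0.0774), and 31 of all 50 members did. The cluster holds close copies whose reads may be mixed, so its 9 values are not independent. These differences share the untreated libraries with the comparisons above: the KO cells started lower in these members and were nearer to WT at 4 h. The Trim30d call was lost in 12 of 19 alternatives, including RLE size factors, DESeq2 and the leaving out of single libraries, and the Trim34a call held in all 19. The count of 2 became 1 without KO Jurkat library 1 or 3, untreated KO library 1 or 2, WT Jurkat library 1 or 3 or untreated WT library 3. Without KO Jurkat library 2, which stood apart in 3 genes, the Trim34a call held (0.61) and the Trim30d call was lost, although its value was 0.57. The count stayed at 2, since another member was called in its place. Without this library 10 members in place of 12 were called between KO and WT at 4 h with Jurkat cells. Between treated and untreated KO cells 43 in place of 44 were called. For OVA at 4 h, no member was called by edgeR or under any alternative, DESeq2 included, against a background of 0.0405%.

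OVA for 4 h gave a weaker rise that was centred on the same cluster. In WT 10 members rose (20%, background 11.9%) and 6 fell (12%, background 11.7%), and in KO 7 rose (14%, background 5.94%) and 1 fell (2%, background 5.69%). The cluster held 6 of the 10 and 6 of the 7. Macrophage markers moved as well: 6 of 8 rose in WT, where they summed to 1126 to 1235 CPM untreated and to 1473 to 1651 CPM after OVA, and 4 of 8 rose in KO. Of 8 stromal markers 3 rose in WT and 2 in KO, none of either list was at 0 in these groups, and their part in the TRIM values was not tested. The WT total of 16 became 10 without WT OVA library 3. Trim30d rose from 122.3, 97.7 and 99.8 to 166.9, 157.2 and 157.0 CPM in WT (0.59, SE 0.112, adjusted p = 0.000232) and by 0.55 in KO. Trim34a rose to 43.6, 42.7 and 43.7 CPM in WT (0.51, SE 0.0904, adjusted p = 9.47e-05) and by 0.52 in KO.

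Trim30a rose by 0.45 in WT (355.7 to 485.8 CPM, SE 0.0942, adjusted p = 0.000685) and by 0.40 in KO (220.1 to 290.0 CPM, adjusted p = 0.00514). Trim30b rose by 0.46 and 0.47, and Trim12c by 0.41 in WT and 0.23 in KO, where the call was lost without KO OVA library 2 or 3 or untreated KO library 1. Trim21 rose by 0.29 in WT (47.8 to 58.3 CPM) and 0.25 in KO. Trim5 did not pass the test in either genotype (0.02 and 0.14). Trim37 fell in both (-0.17 and -0.18), and Trim68 fell in WT by 0.32 (lost without WT OVA library 3). Among the partners of TRIM proteins, 12 of 26 rose and 1 fell in WT at 4 h with OVA (background 11.9% and 11.7%), and 24 rose and 2 fell at 4 h with Jurkat cells (background 38.9% and 40.6%).

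At 30 min few members moved. OVA gave 3 higher (6%, background 5.51%) and 3 lower (6%, background 5.15%) in WT and 1 higher (2%, background 1.88%) and 1 lower (2%, background 1.88%) in KO, shares near those of all genes. Trim24 was the clearest: it rose from 69.3, 62.5 and 62.5 CPM to 79.5, 82.4 and 80.8 CPM in WT (0.32, SE 0.0449, adjusted p = 1.96e-05). In KO it rose from 58.5 to 66.6 CPM (0.18, adjusted p = 0.0287), a call lost with the compared groups alone and without KO OVA library 1 or 3 or untreated KO library 1 or 2. Trim14 fell by 0.21 in WT (adjusted p = 0.0239) and by 0.27 in KO (adjusted p = 0.0123), and the calls were lost, besides the compared groups alone in WT, without WT OVA library 1 or 2 or untreated WT library 3, and without KO OVA library 2 or 3 or untreated KO library 3. The WT count of 6 became 1 without WT OVA library 1, WT OVA library 2 or untreated WT library 3. The KO count of 2 became 0 without KO OVA library 3, the library with only 9.73 M counts. It became 1 without KO OVA library 2 or any 1 of the untreated KO libraries.

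Jurkat cells for 30 min lowered more members than they raised. In WT 12 fell (24%, background 14.5%) and 2 rose (4%, background 14.2%), and in KO 9 fell (18%, background 8.26%) and none rose (background 8.72%). Both genotypes shared 7 of these falls: Trim3, Trim7, Trim8, Trim14, Trim16, Trim41 and Trim65. In KO the Trim7 call was lost without any 1 of the Jurkat libraries or untreated library 2 or 3, the Trim14 call without Jurkat library 2 or 3 or untreated library 2 or 3, and the Trim16 call without Jurkat library 1 or 2 or untreated library 1 or 3. Trim65 fell from 23.3, 23.7 and 25.2 to 17.9, 19.3 and 20.3 CPM in WT (-0.33, SE 0.0637, adjusted p = 0.000263) and by 0.37 in KO. Trim3, an NHL-domain ligase, fell by 0.31 in WT (66.4 to 53.5 CPM, SE 0.0522, adjusted p = 4.94e-05) and by 0.27 in KO. Trim16 fell by 0.34 in WT, Trim7 by 0.34 and Trim21 by 0.32 (47.8 to 38.3 CPM, adjusted p = 0.000239).

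The 2 members that rose in WT at 30 min with Jurkat cells were Trim66 (0.471 to 0.832 CPM, 0.81) and Trim9 (0 to 16 counts, at least 5.39-fold). The Trim66 call was lost without WT Jurkat library 2 or untreated WT library 2 or 3. T-lineage markers summed to 131.3 to 136.7 CPM in those WT libraries, against 88.6 to 94.7 CPM untreated. The KO count of 9 became 5 without KO Jurkat library 1, KO Jurkat library 2 or untreated KO library 2 and 4 without untreated KO library 3. In the KO against WT comparison at 30 min with Jurkat cells, the count of 8 became 5 without KO library 3.

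The sum of all 68 members put these movements together. Untreated WT cells had 2707 ± 54.0 CPM and untreated KO cells 2417 ± 21.2 CPM, and the libraries did not overlap (2646 to 2748 against 2405 to 2442 CPM). At 4 h with OVA it was 2937 ± 22.5 against 2514 ± 42.4 CPM. At 30 min with Jurkat cells the KO sum of 2296 to 2468 CPM overlapped the WT range of 2464 to 2519 CPM. At 4 h with Jurkat cells WT cells had 5418 ± 332 CPM and KO cells 4819 ± 135 CPM, again without overlap.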

How the data were processed

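The authors deposited 1 table of whole-number counts per gene on mm10, with 1 column per library, and all 30 columns matched a sample title. STAR 2.5, Subread, featureCounts 1.5.0-p1 and DESeq2 are named in the submitters' processing notes, without their roles. The sources used here give no annotation, strand setting or treatment of reads shared by copies or coming from human Jurkat RNA, so counts of copies and of the 11 members whose rows overlap another row are uncertain. RNA was taken with Trizol and a column, and libraries were made with a TruSeq kit, per the labels' protocols.

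Genes were kept with filterByExpr by group (14808 of 25611), scaled with TMM and tested in 1 edgeR 4.0.16 quasi-likelihood model (R 4.3.3) that held the 30 libraries and 10 group means, two-sided and free of covariates, with Benjamini-Hochberg adjustment over all genes tested. The SE was taken as the size of the log2 fold change over the root of its F statistic. The biological coefficient of variation common to all genes came to 0.0515 (prior degrees of freedom 7.89). TMM factors were 0.765 to 0.842 at 4 h of Jurkat cells and 1.03 to 1.07 elsewhere. Counting floors cover counting error only. The 15 contrasts were KO against WT in 5 conditions, 8 of treatment against untreated and 2 interactions. The procedure was tested on simulated counts.

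The members, role groups and lists were chosen with earlier results of these data known. Library values are given for Trim30a and for up to 6 members per contrast with no overlap of libraries, at least 5 CPM and the largest fold changes, and further members are named with a level, a fold change or a test. Alternatives were RLE size factors, total counts, no filter, at least 5 CPM in 3 libraries, a replicate block, the compared groups alone, DESeq2 1.42.0 and each library left out in turn. Protein sequences were not used here, and 1 gene of the interferon signal list is not reported here.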

Additional observations from a re-analysis of the deposited data

Results flagged for a closer look

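The response to 4 h of Jurkat cells differed between the genotypes for 2 members, by the interaction test over all genes. They are 4% of the 50 tested members, near the 4.26% of all genes called. Trim34a rose more in KO than in WT by 0.63 on the log2 scale (SE 0.128, edgeR adjusted p = 0.00484), from 18.0 to 91.4 CPM in KO and from 30.4 to 100.3 CPM in WT. Trim30d rose more in KO by 0.54 (SE 0.158, edgeR adjusted p = 0.0465), from 60.4 to 501.1 CPM in KO and from 106.6 to 607.4 CPM in WT. T-lineage markers summed to 171 to 208.5 CPM in WT and to 151.1 to 171.3 CPM in KO libraries at 4 h of Jurkat cells. Untreated, they summed to 88.6 to 94.71 CPM in WT and to 102.4 to 109.9 CPM in KO libraries, so they rose less in KO. By the interaction test 3 of 20 T-lineage markers were called, all lower in KO (median -0.64). The part of T-lineage RNA in the TRIM differences was not tested. The Trim34a call held in all 19 alternatives, and the Trim30d call was lost in 12 of them.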

How the results depend on the processing

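Over 81 results for named members, 1124 alternative values were computed: 1040 kept direction and side of the threshold, 78 lost the call, 4 gained it and 2 reversed. The reversals were Trim30a at 30 min of Jurkat cells in KO, at -0.111 without KO library 1 (up to 0.156 without KO library 2), and the Trim30a interaction at 4 h of OVA, at 0.001 without KO OVA library 1 (down to -0.142 without untreated WT library 1); the cause was not tested. Counts of called members moved by over 1.5 times with the compared groups alone (1 at 30 min of OVA in WT, 5 at 30 min of Jurkat cells in KO) and for the Jurkat interaction (1 with RLE size factors, 6 with total counts).

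Leaving out 1 library at a time gave, for KO against WT, 11 to 14 called members in untreated cells, 13 to 15 at 30 min of OVA, 5 to 9 at 30 min of Jurkat cells, 11 to 13 at 4 h of OVA and 8 to 13 at 4 h of Jurkat cells. For WT treatments it gave 1 to 7, 12 to 16, 10 to 14 and 40 to 43 in the order 30 min OVA, 30 min Jurkat, 4 h OVA and 4 h Jurkat, and for KO 0 to 2, 4 to 8, 6 to 8 and 42 to 44. The interactions gave 0 to 0 for OVA and 1 to 3 for Jurkat cells.

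The labels do not say whether same-numbered libraries shared more than the number, such as a mouse or a day. Correlations of their deviations from the group means ran from -0.118 to 0.151, and in no contrast were all over 0.1. With the replicate number as a block, the members called in KO against WT were 14, 17, 9, 12 and 13 (untreated, 30 min OVA, 30 min Jurkat, 4 h OVA, 4 h Jurkat), and no count moved by over 1.5 times. Members under about 1 CPM rest on few counts.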
